A study of Mus musculus with 6 samples.

Results

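The genes described here are 5 genes that are active in the fetal liver and low in the adult liver (Afp, H19, Igf2, Gpc3 and Dlk1), with Ly6d, a surface protein gene. They were taken as every probe set, the group of short array probes that reads 1 transcript, whose platform annotation gives exactly 1 symbol and that symbol is 1 of the 6. This gave 10 probe sets of 22626 on the array: 5 for Afp, 2 for Igf2 and 1 each for Gpc3, Dlk1 and Ly6d. H19 has none of its own. The only probe set that carries its name, 1448194_a_at, is annotated with both H19 and the microRNA gene Mir675, so it is reported by its identifier, outside the set. The genes were chosen by their BPD against GFP difference in these same livers, so their values are given as a description and without a test. They are 5 of 12393 genes that have a probe set of their own on the array.

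Livers came from 6 male KK/H1J mice, an inbred polygenic model of obesity with type 2 diabetes, 12 to 14 weeks old and about 35 g. All 6 had received an adenovirus through the tail vein and were fed freely until the livers were taken on day 7. In 3 mice (numbers 23, 28 and 36) the virus carried a bisphosphatase-deficient form of PFK-2, the enzyme with kinase and bisphosphatase parts that sets the level of the glycolytic activator fructose 2,6-bisphosphate (BPD). In the other 3 (numbers 22, 29 and 31) it carried green fluorescent protein (GFP). No mouse without virus was included, so the GFP livers are themselves livers after adenovirus. The labels do not say which liver cells took up the virus, and they give neither litter nor cage group.

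Alpha-fetoprotein (Afp) is the main plasma protein of the fetal liver, encoded beside the albumin gene, and is silenced in hepatocytes after birth. Its return is a known sign of hepatocellular carcinoma and of regenerating or progenitor-like liver cells. Igf2 and H19 are neighbouring imprinted genes, 1 expressed from the paternal and the other from the maternal copy. Igf2 encodes a fetal growth factor, Dlk1 a surface protein of hepatoblasts related to the Notch ligands, and Gpc3 a heparan sulfate proteoglycan of the cell surface that is used as a tumour marker. Ly6d belongs to the Ly6/uPAR family of small membrane-anchored proteins and is known from keratinocytes and early B cells.

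Of the 4 genes of the set with an entry in the RefSeq promoter table, Afp and Gpc3 are shown, since both were brighter in BPD livers by deposited signal and their upstream bases differ in kind. Both runs hold the 250 bases before the gene's start on build GRCm38.p6, written 5' to 3' on the gene's own strand. Capitals mark matches to TATAAA (the TATA box), to GTTAAT (the core of sites of the hepatocyte factor HNF1) and to GGGCGG (the GC box). All 3 were searched on both strands.
Afp, chr5:90490464-90490713, plus strand: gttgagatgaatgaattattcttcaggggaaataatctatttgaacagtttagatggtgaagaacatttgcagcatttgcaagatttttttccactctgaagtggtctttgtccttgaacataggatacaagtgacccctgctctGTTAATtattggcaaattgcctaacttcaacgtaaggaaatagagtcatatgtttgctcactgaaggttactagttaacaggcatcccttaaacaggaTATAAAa
Gpc3, chrX:52613975-52614224, minus strand: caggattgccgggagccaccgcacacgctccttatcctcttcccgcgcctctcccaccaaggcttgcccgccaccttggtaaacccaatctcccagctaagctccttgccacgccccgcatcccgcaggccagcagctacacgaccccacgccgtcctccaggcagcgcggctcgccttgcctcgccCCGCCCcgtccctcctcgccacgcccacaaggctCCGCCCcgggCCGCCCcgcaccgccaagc
The Afp run has 1 CpG and 36.0% G and C, and 92.1% of the 32851 RefSeq promoters hold at least as many CpGs. It has the letters TATAAA at bases -7 to -2 and GTTAAT at -105 to -100, counted back from the start. The letters TATAAA are found in 12.4% and GTTAAT in 6.43% of all promoters searched in the same way. Other forms of these sites were not searched. The Gpc3 run has 25 CpGs against a median of 6, 71.6% G and C, and 3 GC boxes, a motif found in 32.7% of promoters. A match describes letters only.

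Signals are the authors' deposited linear intensities. Differences are BPD minus GFP on the log2(signal + 16.3313) scale, after each array was centred on its median, with the standard error (SE) of the limma fit. On this scale the median gene stood at -0.22, with the deposited scaling at 0.08 and with quantile normalization at -0.06. Array medians were 174.0 to 197 in BPD and 135 to 157 in GFP livers. The added constant shrinks the differences of dim probe sets. Albumin, the defining hepatocyte product, had a signal of 14784 to 21340 in the 6 livers. Because the samples are whole liver, a change in the number of cells that express a gene and a change in RNA per cell cannot be told apart.

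Ly6d had the clearest change of the set. Its signal was 4642, 3664 and 1904 in BPD livers 23, 28 and 36, and 159, 108 and 72.8 in GFP livers 22, 29 and 31. Every BPD liver lay above every GFP liver, and liver 36 was the lowest of the BPD livers. The means were 3403 ± 1387 and 113 ± 43.6 (SD, n = 3 each), a difference of 4.38 ± 0.36 or 20.8-fold. By gene this was the rise ranked 2 of 8151 genes past the filter on dim probe sets, and Ly6d was the only gene of the set that passed that filter (mean signal above 98.8). Leaving out 1 liver at a time gave 4.08 without BPD liver 23 to 4.73 without BPD liver 36.

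Markers of the cell types in which Ly6d is best known were mostly dim. Of the B cell and early lymphoid markers, 16 of 18 had a probe set, 4 passed the filter and 0 of these passed the test in either direction (limma, adjusted p under 0.05, and 0 at an unadjusted p under 0.05). Their summed signal was 1061 to 1695 in BPD and 881 to 1340 in GFP livers, so the groups overlapped. Cd79a, Vpreb1, Pax5, Ebf1, Rag1, Rag2 and Blk, which mark B lineage cells, were under the filter level in all 6 livers. Among squamous epithelium markers 13 of 14 had a probe set, 3 passed the filter and 1 of them was higher. This was Sprr1a, a protein of the cornified envelope, at 779.8, 674 and 204 in BPD and 84.9, 173 and 105 in GFP livers (1.60 ± 0.42, limma adjusted p = 0.021). Its call was lost without BPD liver 23 or 28 and without GFP liver 22 or 31. The sums of these markers also overlapped, at 2051 to 2767 in BPD and 1744 to 2325 in GFP livers. The other squamous genes Krt14, Krt1, Krt15, Sfn, Trp63, Dsc3, Pkp1 and Ivl were under the filter level in every liver.

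Other genes of the Ly6/uPAR family are given as a description, since Ly6d was chosen by this contrast and its lead over them was set in advance. Of 35 listed, 16 had a probe set of their own, and their differences ran from -0.93 to 1.46. The other 19, among them Ly6a, Ly6c1, Ly6c2, Ly6e and Ly6g, were not analysed. The filter left out 14 of the 16 as too dim, and the added constant shrinks the differences of such genes. Only 2 passed the filter: Cd59a, an inhibitor of the complement attack complex, fell by 0.93 ± 0.17 (limma adjusted p = 0.0050), and Plaur, the urokinase receptor, stood at 0.33 ± 0.21 (adjusted p = 0.25). In the fit without a filter, in which 5.70% of genes were called higher and 12.7% lower, 2 family genes were called higher and 1 lower. The higher ones were Cd177, a neutrophil surface protein (1.33 ± 0.28, adjusted p = 0.015), and Lynx1, a modulator of nicotinic receptors (1.46 ± 0.41, adjusted p = 0.044). Lynx1 is the direct neighbour of Ly6d on chromosome 15 in the RefSeq order of assembly GRCm38.p6. Its signal was 134, 197 and 120.4 in BPD and 73.0, 17.6 and 21.0 in GFP livers, with no overlap.

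**Figure D1:**
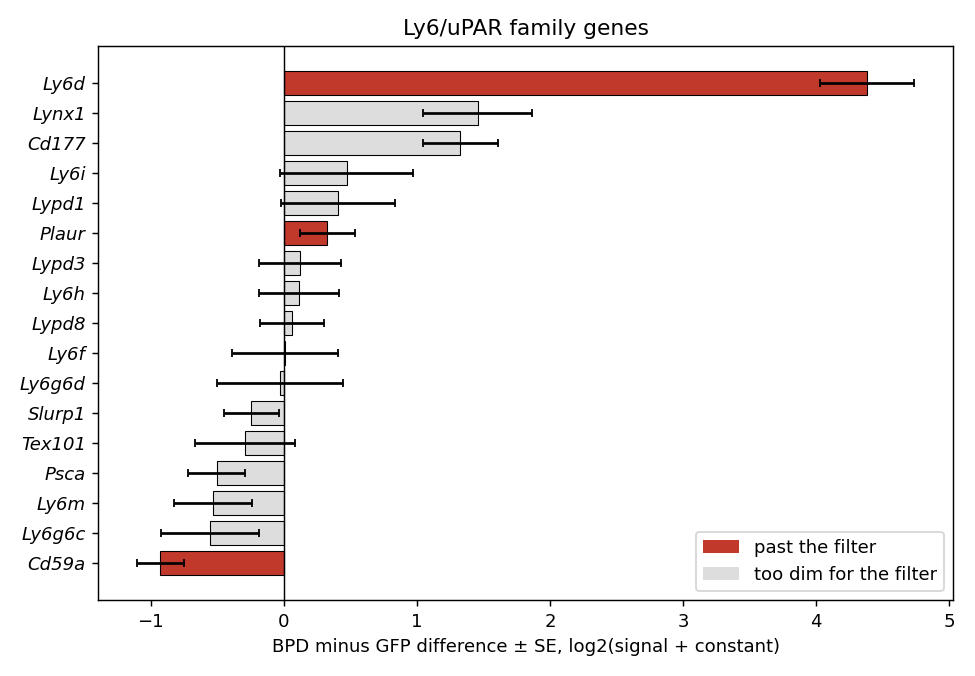
Differences between BPD and GFP livers (x axis, log2(signal + constant), arrays centred on their medians) for Ly6d and 16 other Ly6/uPAR genes (y axis). Bars are the fitted differences and whiskers their SE (n = 3 livers a group), with dark bars for genes past the filter and pale bars for dimmer ones; Ly6d stands at 4.38 and the others between -0.93 and 1.46.

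The genes whose values most resembled those of Ly6d over the 6 livers were Rpa1, Tgm2 and Calml4. Rpa1 encodes the large subunit of the single-stranded DNA binding complex used in replication, Tgm2 tissue transglutaminase and Calml4 a calmodulin-like protein. Their Pearson r with Ly6d was 0.999, 0.998 and 0.998, and with group means removed 0.977, 0.988 and 0.986. These correlations are a description over 6 livers that share the same 2 groups, and 543 of 8150 genes had an r above 0.9. Calml4 had signals of 1787, 1425 and 900.1 in BPD and 163, 122 and 76.4 in GFP livers. It followed the order of Ly6d in both groups, with a difference of 3.04 ± 0.30.

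Afp had a positive difference in 4 of its 5 probe sets, and in these 4 livers 23 and 28 were the brightest of the 6. The probe set 1416645_a_at read 621, 605 and 60.9 in BPD livers 23, 28 and 36, and 31.7, 1.88 and 27.4 in GFP livers 22, 29 and 31. The groups did not overlap, but liver 36 lay nearer to the GFP livers than to the other BPD livers, which were 10.2 and 9.92 times as bright. The means were 429 ± 319 and 20.3 ± 16.1 (SD, n = 3 each), a difference of 2.91 ± 0.78. Without BPD liver 36 it was 3.90, and without BPD liver 23 it was 2.37.

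The other Afp probe sets shared the low value of liver 36 among BPD livers but not the order of the other livers. 1436879_x_at read 274, 186 and 16.5 in BPD and 1.96, 0.872 and 0.555 in GFP livers, again without overlap, a difference of 2.53 ± 0.69. All 3 GFP values lay below the added constant, so this size rests on the constant. 1416646_at read 352, 273 and 70.3 in BPD livers, and 9.89, 68.0 and 51.7 in GFP livers. Its groups were apart in deposited signal by a narrow gap and overlapped after centring, with a difference of 1.68 ± 0.58. The dim 1436881_x_at read 29.4, 47.3 and 3.49 against 3.93, 1.69 and 3.23, with overlap and a difference of 0.70 ± 0.37. 1436880_at was below the added constant in all 6 livers, between 2.47 and 5.76, and gives no usable difference (-0.31 ± 0.19). Liver 36 was the lowest BPD liver in all 5 Afp probe sets. Probe sets for 1 gene differ in their probes, so their levels are not compared with each other.

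**Figure D2:**
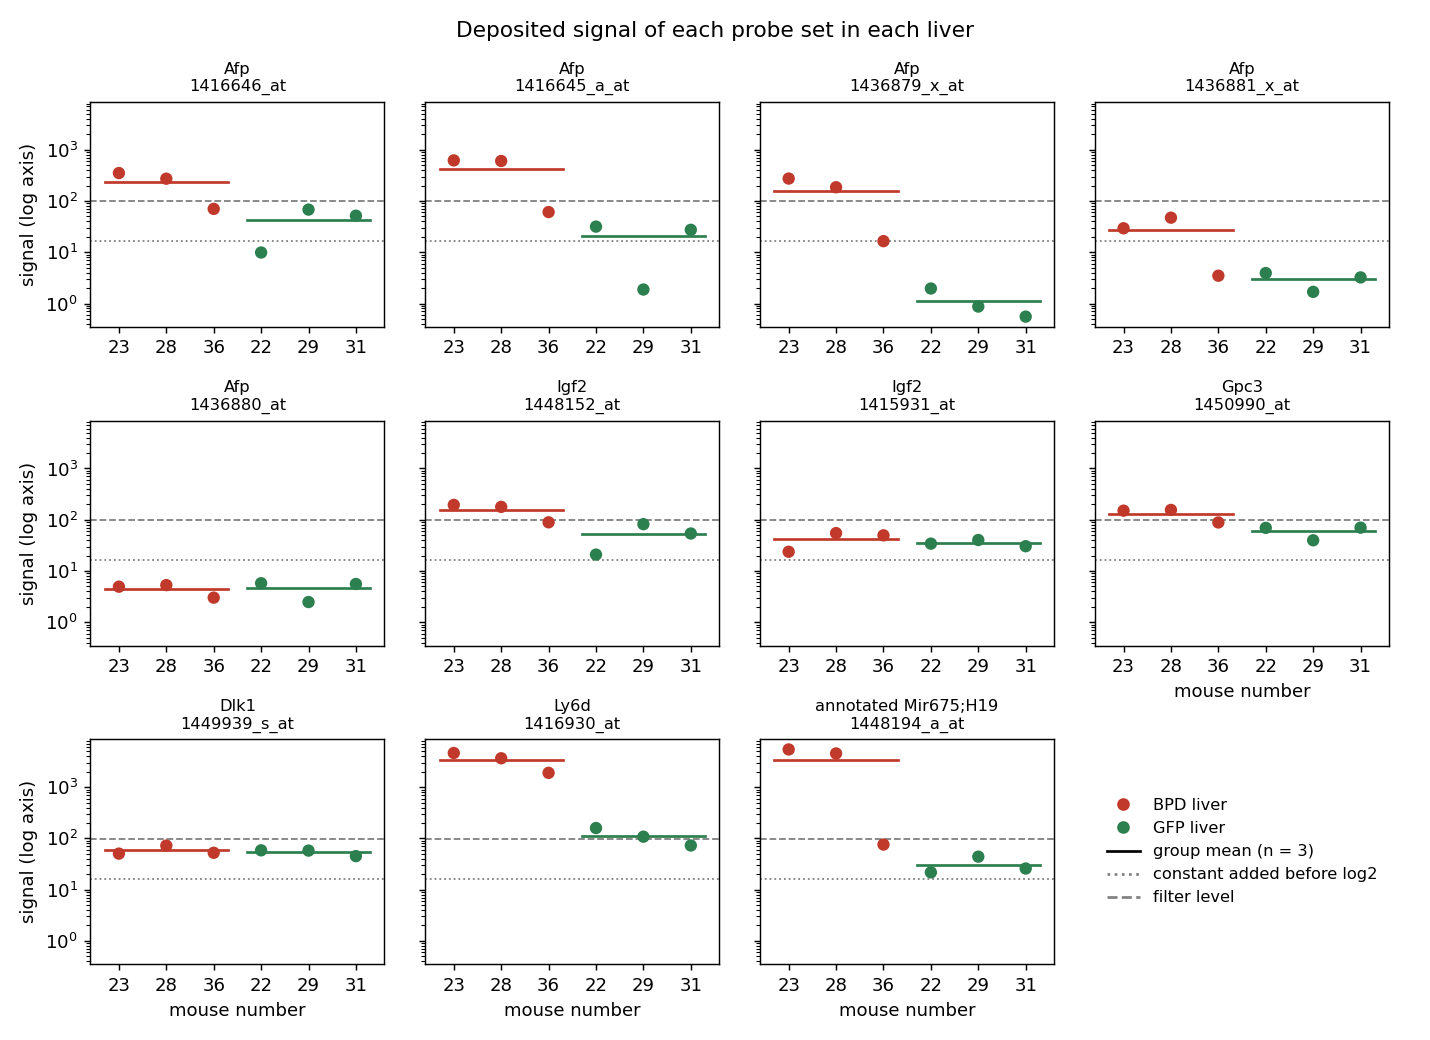
Deposited signal (y axis, linear intensity drawn on a log axis) of each probe set in each liver (x axis, mouse number), BPD livers in red and GFP livers in green, with bars at the group means (n = 3), a dotted line at the added constant and a dashed line at the filter level. Ly6d is high in all 3 BPD livers, whereas the brighter Afp probe sets and the probe set annotated with both Mir675 and H19 are high in livers 23 and 28 and close to the GFP livers in liver 36.

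The probe set annotated with both H19 and Mir675 showed the widest gap among BPD livers. 1448194_a_at read 5448, 4549 and 75.9 in livers 23, 28 and 36, and 21.7, 44.0 and 25.9 in GFP livers 22, 29 and 31. Livers 23 and 28 were 71.8 and 59.9 times as bright as liver 36, which still lay above all GFP livers. The fitted difference was 4.54 ± 1.31, from 3.49 without BPD liver 23 to 6.44 without BPD liver 36. H19 is a spliced noncoding RNA from which Mir675 is cut, so the signal cannot be given to 1 of them here. Its log2 values over the 6 livers correlated with those of Afp 1436879_x_at at r = 0.99 and with those of Ly6d at r = 0.85, as a description of values that share the same groups.

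Igf2, the growth factor gene beside H19, differed between its probe sets. 1448152_at read 194, 178 and 89.0 in BPD and 20.9, 81.9 and 53.8 in GFP livers. The groups were apart by a narrow gap in deposited signal and overlapped after centring, with a difference of 1.06 ± 0.38. It was 0.72 without GFP liver 22, the dimmest, and 1.35 without BPD liver 36. The other probe set, 1415931_at, read 23.7, 54.8 and 49.6 in BPD livers, and 34.1, 40.2 and 30.4 in GFP livers. These overlapped, and the difference of -0.14 ± 0.26 took the opposite sign with the deposited scaling (0.16).

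Gpc3, the proteoglycan, read 150.2, 155 and 88.4 in BPD livers, and 69.3, 39.7 and 70.0 in GFP livers. The groups did not overlap in deposited signal and did after centring, with a difference of 0.65 ± 0.31. It was 0.39 without GFP liver 29, the dimmest, and 0.86 without BPD liver 36. Dlk1, the hepatoblast surface protein, read 50.5, 72.4 and 52.4 in BPD and 58.5, 57.8 and 45.1 in GFP livers. Its groups overlapped, at 58.4 ± 12.1 and 53.8 ± 7.55 (SD, n = 3 each), and the difference of -0.22 ± 0.23 equalled that of the median gene and was 0.09 with the deposited scaling. All 6 Dlk1 signals were under the filter level, so its difference rests on dim signal.

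Over the 10 probe sets, 7 differences were positive and 3 negative. The lowest BPD liver exceeded the highest GFP liver in 3 of the 10 after centring, where 10.5% of all probe sets did, and in 6 of the 10 by deposited signal, where 22.0% of all did. In the fit without a filter 3 were called higher and 0 lower (Ly6d and Afp 1416645_a_at and 1436879_x_at), beside 5.27% and 10.8% of all probe sets. The genes were picked for this contrast, so nothing is read from these counts. Liver 36 was the lowest BPD liver in 8 of the 10. Over the whole array it was the lowest in 718 of the 1126 probe sets called higher in BPD livers (63.8%), against 19.1% for liver 23 and 17.1% for liver 28. Those 1126 were 8.29% of the 13575 probe sets past the filter, of which another 20.3% were called lower.

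**Figure D3:**
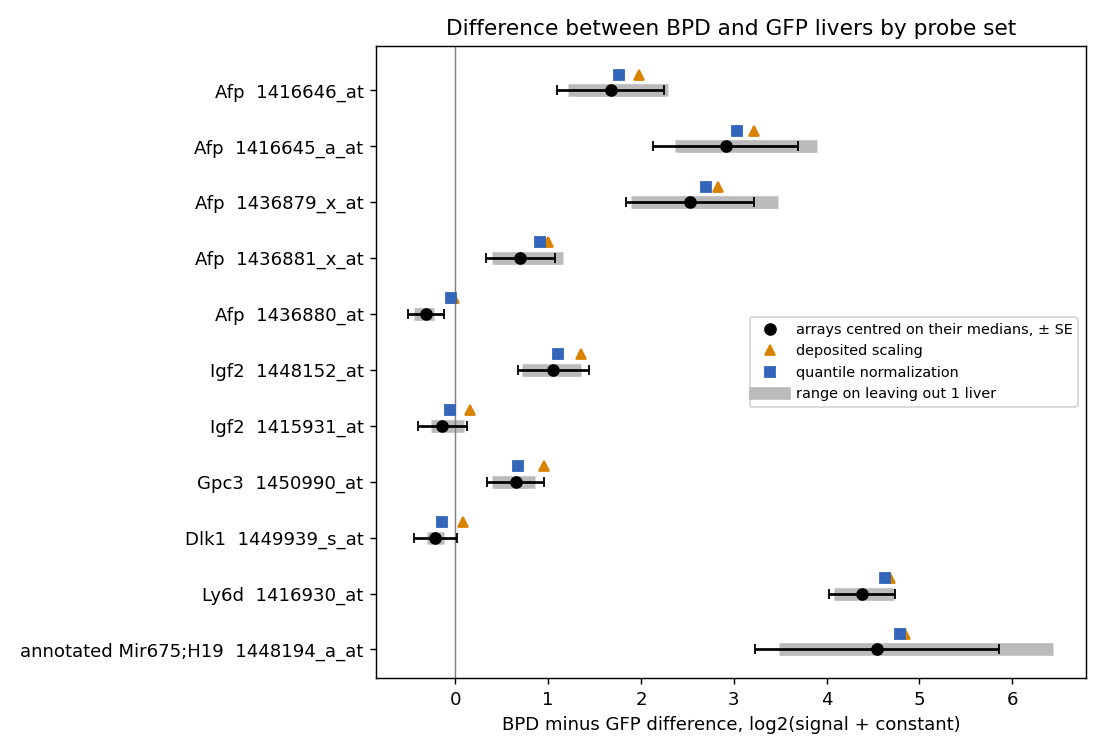
BPD minus GFP difference (x axis, log2(signal + constant)) of each probe set (y axis), with black points and SE after centring, triangles for the deposited scaling, squares for quantile normalization and grey bars for the range on leaving out 1 of the 6 livers. The bars are wide for the probe set annotated with both Mir675 and H19 (3.49 to 6.44) and narrow for Ly6d (4.08 to 4.73). The bar of Igf2 1415931_at crosses 0, and that of Dlk1 does not, although its triangle lies above 0.

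The fetal genes were next set against other genes of fetal liver, hepatoblasts and liver progenitor cells. In this comparison 8.75% of all 8151 genes past the filter were higher and 22.2% lower. The list was written with earlier results of these data known, so its counts are a description. Of 30 listed genes 15 passed the filter, of which 7 rose, 1 fell and 7 did not pass the test. The same 7 and 1 counts came from the fit without a filter, over 25 genes with a probe set. The list's median stood 1.29 above that of all genes with the filter and 0.82 above without it. In 5 of the 7 that rose, liver 36 was the lowest BPD liver.

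Cd24a, a surface protein of progenitor and bile duct cells, rose by 3.61 ± 0.28 (limma adjusted p = 1.7e-04). It read 1483, 1531 and 1277 in BPD livers, without the drop in liver 36, and 131, 71.4 and 51.2 in GFP livers. Sox4, a transcription factor of progenitors, rose by 2.57 ± 0.44 (adjusted p = 0.0034). It read 792, 953 and 222 against 60.1, 86.5 and 44.8, so liver 36 was lowest here, and its 6 probe sets ran from -0.25 to 2.57. Lpl, the lipoprotein lipase of fetal liver, rose by 2.20 ± 0.37 (adjusted p = 0.0031). Pkm, the pyruvate kinase gene of fetal and dividing cells, rose by 1.73 ± 0.28 (adjusted p = 0.0028). Fst, Scd2 and Aldoa also rose, by 1.45, 1.22 and 0.99. Aldoc, an aldolase, fell by 1.52 ± 0.21 (adjusted p = 0.0015). Prom1, a progenitor surface marker named after its values were seen, read 484, 377 and 37.0 against 26.2, 58.0 and 59.0 (1.52 ± 0.70, adjusted p = 0.13), with liver 36 among the GFP livers. Sox4 and Prom1 had GFP values under the filter level and passed the filter through their BPD values. Hk2, Meg3 and Peg3 also had positive differences without passing the test, while Mdk stood at -0.25, Cdh1 at -0.015 and Tspan8 at 0.002. Among the genes too dim for the filter, Krt19, Igf2bp3, Epcam and Bex1 had positive differences. Hmga2, Igf2bp1, Igdcc4, Lin28a, Sox9 and Sox11 had negative ones, from -0.47 to -0.18. None of these dim genes passed the test in the fit without a filter.

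**Figure D4:**
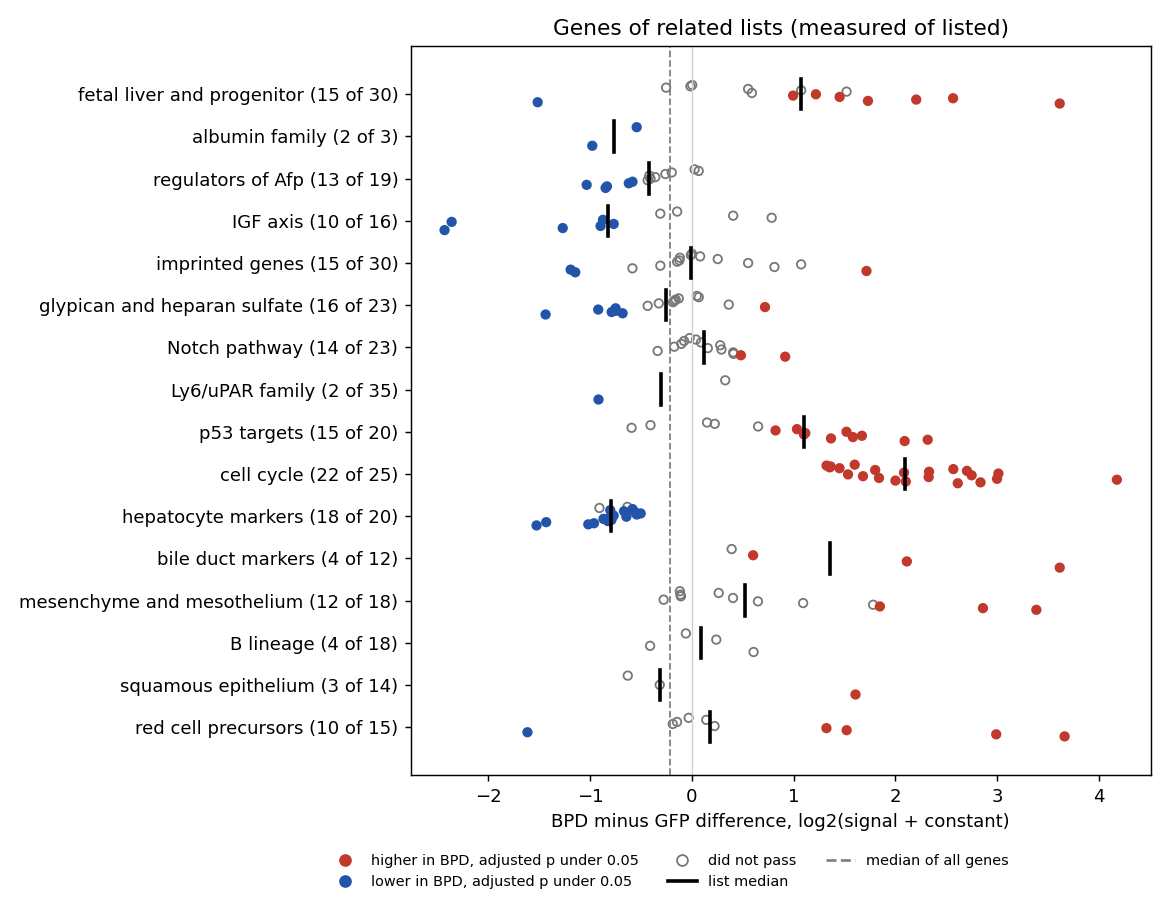
BPD minus GFP difference (x axis, log2(signal + constant), centred arrays) of every gene past the filter in 16 lists (y axis, measured of listed genes). Red and blue points passed limma's test as higher and lower, open points did not, black ticks are list medians and the dashed line is the median of all genes; cell cycle genes were higher in 22 of 22 and hepatocyte markers lower in 16 of 18.

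The albumin gene family lies around Afp on chromosome 5, and its adult members went the other way. Afm (afamin, a vitamin E binding plasma protein) fell by 0.98 ± 0.15 (limma adjusted p = 0.0019), from 7436 ± 776 in GFP to 4627 ± 240 in BPD livers. Alb fell by 0.54 ± 0.12 (adjusted p = 0.0084), from 19217 ± 1848 to 16231 ± 1260. The fall of Alb did not pass the test with the deposited scaling (-0.24, adjusted p = 0.13), and with quantile normalization its difference was 0.09 (adjusted p = 0.42). Both genes adjoin Afp in the RefSeq order.

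Of 19 listed transcription factors known to act on Afp, 13 passed the filter. Zhx2, also listed, had no probe set of its own and was not analysed. By limma 0 of the 13 rose (0 at an unadjusted p under 0.05) and 5 fell, where 22.2% of all genes past the filter fell. The list's median was -0.20 against all genes. Zbtb20, a repressor of Afp after birth, read 1201, 1164 and 1128 in BPD livers and 1480, 1534 and 2197 in GFP livers. The groups did not overlap, and Zbtb20 fell by 0.85 ± 0.19 (limma adjusted p = 0.011), with its 3 probe sets between -1.08 and -0.83. The call of Zbtb20 held under all 12 alternatives, at -0.98 to -0.55, and the median difference of the hepatocyte markers was -0.80. The other 4 regulators that fell were the liver factors Cebpa (-1.04 ± 0.29), Nr5a2 (-0.84 ± 0.23), Foxa2 (-0.62 ± 0.18) and Hnf4a (-0.58 ± 0.19). With the deposited scaling or quantile normalization only 1 factor was called lower. The count was also 1 without BPD liver 28, GFP liver 22 or GFP liver 31, and 2 without BPD liver 23 or 36. Cebpa, Foxa2 and Nr5a2 lost their calls in 7, 7 and 6 of 12 alternatives.

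Around Igf2, most binding and carrier genes fell, and the receptor genes Igf2r and Igf1r did not pass the test. Of 10 measured genes of the IGF axis, 6 fell and 0 rose (1 at an unadjusted p under 0.05), with 2 higher and 5 lower under the deposited scaling. Igfals, the subunit that holds IGF complexes in plasma, fell by 2.43 ± 0.32 (limma adjusted p = 0.0011), with 171, 317 and 506 in BPD and 1325, 1278 and 1561 in GFP livers. Igfbp3, the main carrier of circulating IGF, fell by 1.27 ± 0.19 (adjusted p = 0.0018) and Igf1 by 0.90 ± 0.15 (adjusted p = 0.0031). Igfbp2 fell by 2.36 ± 0.55 (adjusted p = 0.012). It read 862, 539 and 127 in BPD and 1506, 1442 and 2270 in GFP livers, with liver 36 lowest. Igfbp4 and Igfbp5 fell by 0.77 and 0.87, the former a call lost with quantile normalization (-0.12, adjusted p = 0.30). The list's median was -0.60 against all genes, and -0.18 with quantile normalization. Igf2r, which clears IGF2 from the cell surface, stood at -0.15 ± 0.17 (adjusted p = 0.53), at 0.16 with the deposited scaling and at 0.05 with quantile normalization. Igf1r, the signalling receptor, was under the filter, at -0.07 ± 0.29 in the fit without one (adjusted p = 0.89).

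Other imprinted genes did not share 1 direction. Of 15 measured, 1 rose (2 with either other scaling) and 2 fell, and the median was 0.21 above that of all genes. Cdkn1c, an inhibitor of the cell cycle, rose by 1.72 ± 0.26 (limma adjusted p = 0.0021). It read 250, 440 and 345 in BPD and 41.8, 88.7 and 92.0 in GFP livers. Slc22a18 fell by 1.19 ± 0.21 (adjusted p = 0.0038) and the amino acid transporter Slc38a4 by 1.15 ± 0.15 (adjusted p = 0.0011). Plagl1, a zinc finger factor of an imprinted growth network, stood at 0.81 ± 0.30 (adjusted p = 0.066) and at 1.13 without BPD liver 36 (adjusted p = 0.010). Meg3, the noncoding RNA of the Dlk1 cluster, is named after its values were seen. It read 2848, 1830 and 416 in BPD and 390, 545 and 560 in GFP livers (1.07 ± 0.56, adjusted p = 0.17), so liver 36 fell within the GFP range. Without liver 36, 3 imprinted genes were called higher and 3 lower.

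Among glypicans and heparan sulfate genes, the group of Gpc3, 1 of 16 measured rose and 6 fell, or 2 and 3 on the deposited scale. The call higher was lost without a filter and without BPD liver 23 or 28 or GFP liver 22 or 31. The calls lower dropped to 3 without BPD liver 28 and to 4 without BPD liver 23, GFP liver 22 or GFP liver 31. Gpc4, the neighbour of Gpc3 on the X chromosome, fell by 0.79 ± 0.18 (limma adjusted p = 0.012, and 0.057 without BPD liver 28). The surface proteoglycans Sdc4 and Sdc2 fell by 1.44 ± 0.24 and 0.68 ± 0.15 (adjusted p = 0.0028 and 0.010). Ext2, a heparan sulfate polymerase, fell by 0.75 ± 0.18 (adjusted p = 0.016, and 0.091 with the deposited scaling). In the Notch pathway, to which Dlk1 is related, 2 of 14 measured genes rose and 0 fell (0 at an unadjusted p under 0.05). Adam10, the protease that cuts Notch, rose by 0.92 ± 0.19 (adjusted p = 0.0083), and Notch1 by 0.48 ± 0.16 (adjusted p = 0.047), a call lost in 8 of 12 alternatives. Leaving out any 1 liver left 1 Notch gene called higher, and the deposited scale gave 4. In the fit without a filter 1 Notch gene was called higher and 1 lower. The lower one was the dim Notch4 (-0.93 ± 0.24, limma adjusted p = 0.035).

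Some markers of other cells were also brightest in livers 23 and 28, and others were not. Bile duct markers summed to 7309, 7067 and 4627 in BPD livers 23, 28 and 36 and to 2308 to 2799 in GFP livers. Most of each sum came from Anxa5 and Aqp1. Of 4 measured, 3 were higher, among them Cd24a, which is in both lists. In the fit without a filter 2 of 10 were higher, where 5.70% of all genes were. The list's median stood 1.58 above that of all genes with the filter and 0.92 above without it. Krt23, a keratin, rose by 2.11 ± 0.36 (limma adjusted p = 0.0031), with 450.1, 350.04 and 216 in BPD and 67.0, 25.3 and 59.4 in GFP livers. Its GFP values lay under the filter level, so it passed the filter through its BPD values. Krt19, a keratin of bile duct cells, was dimmer, at 139.9, 58.8 and 19.8 against 10.7, 8.95 and 9.37, and the adhesion protein gene Epcam read 124, 95.0 and 10.03 against 29.0, 5.88 and 16.4. Krt19 did not overlap between the groups and Epcam did, and neither passed the test in the fit without a filter (adjusted p = 0.11 and 0.31). All 3 were brightest in livers 23 and 28, as Afp was. Krt7, Sox9, Cftr and Muc1 stayed under the filter level in all 6 livers, although Muc1, at 74.8, 27.4 and 8.69, was above every GFP liver in deposited signal. Their differences in the fit without a filter were -0.11, -0.21, -0.56 and 0.78. Stellate cell, fibroblast and mesothelial markers summed to 30162, 27262 and 11020 in livers 23, 28 and 36 and to 12325 to 15312 in GFP livers. This sum is dominated by the keratins Krt8 and Krt18, which hepatocytes also express and which read 3382 and 3195 in liver 36. Of 12 such markers measured, 3 were higher, and 8 without BPD liver 36. In the fit without a filter 2 of 16 were higher. The 3 called with the filter were the matrix genes Col1a1, Col3a1 and Lum, and in deposited signal liver 36 stood above every GFP liver in each. Col1a1, a chain of type I collagen, read 779, 821 and 99.6 in BPD and 16.2, 27.9 and 8.84 in GFP livers. Like Krt23, it passed the filter through its BPD values. Of the mesothelial genes, Msln and Wt1 stayed under the filter level in all 6 livers. Upk3b read 181, 83.3 and 13.9 against 9.59, 11.4 and 7.66, and Gpm6a read 125, 90.0 and 48.5 against 34.4, 31.4 and 34.1. Both were brightest in livers 23 and 28 and above the GFP livers in deposited signal, and neither passed the test in the fit without a filter (limma adjusted p = 0.13 and 0.16). Hepatocyte markers summed to 191329 to 214597 in BPD and 278749 to 287881 in GFP livers, and 16 of 18 were lower, 4 with quantile normalization. No marker was listed at 0. The part of these cells in the differences of the fetal genes was not tested.

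Genes of dividing cells rose in 22 of 22 measured and targets of p53 in 10 of 15, with medians 2.31 and 1.32 above all genes. Some, such as Ccne2, Mcm5 and Plk1, had GFP values under the filter level and passed the filter through their BPD values. In the fit without a filter 23 of 24 and 11 of 17 were higher. The exception among the genes of dividing cells was the dim Tyms (0.01 ± 0.23). Red cell precursor markers, which mark the blood formation of fetal liver, were higher in 4 of 10 and lower in 1. Their sums were 5131 to 7731 in BPD and 4986 to 5596 in GFP livers, and the embryonic globin genes Hba-x and Hbb-bh1 were under the filter level in all 6. The ratio of 3' to 5' signal of Gapdh, a measure of RNA integrity, was 0.863, 0.735 and 0.745 in BPD and 0.785, 0.796 and 0.9003 in GFP livers. The same ratio for beta-actin was 1.75, 1.23 and 1.26 in BPD and 1.56, 1.40 and 1.59 in GFP livers. An exact 2-sided permutation test gave p = 0.5 for Gapdh and p = 0.7 for beta-actin, where 3 against 3 livers cannot go below 0.1.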

How the data were processed

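Liver RNA of 6 mice was measured on 1-colour arrays, 1 mouse per array, 3 BPD and 3 GFP, grouped by the sample titles. The authors deposited 1 linear signal intensity per probe set and array, made with MAS5 per the submitters' processing notes; the sources used here give no version, target value or genome build. The trimmed mean (2% at each end) was 499.9 on every array. Array medians differed 1.46-fold, more than the 25% tolerated, so arrays were centred on their medians after log2(signal + 16.3313), 10% of the median of all values. Between 11.8% and 16.0% of probe sets per array lay below this constant. The table holds 22690 probe sets, 64 of them controls. Of the other 22626, 20380 have 1 symbol in the platform annotation, 691 several and 1555 are unnamed here. Probe sets whose mean log2 value over the 6 arrays lay above the 40th percentile (the level of a signal of 98.8) were kept. These were 13575 in all, for 8151 genes, each by its brightest kept probe set.

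Groups were compared with limma 3.58.1 in R 4.3.3 (lmFit, eBayes with trend, 2-sided), with Benjamini-Hochberg adjustment over all kept probe sets. The fit had 4 residual and 5.44 prior degrees of freedom, and the method was tested on simulated data. Differences of the set's genes come from the same model fitted to all 22626 probe sets (4.60 prior degrees of freedom), since only Ly6d passed the filter. The members, the 16 gene lists and the tests were chosen with earlier results of these data known. From each list described, up to 4 genes with the smallest p were named, with the albumin family, Zbtb20, Igf2r, Igf1r, Plagl1, the Ly6 family and the 3 genes most like Ly6d. Sox4, Fst, Scd2, Aldoa, Hnf4a, Igfbp2, Igfbp5, Prom1, Meg3 and Notch4 were named after their values were seen. So were the fetal liver genes that did not pass the test and the markers of other cell types. Listed genes without a 1-symbol probe set were not analysed here. Alternatives were 2 scalings, an added constant 4 times larger or smaller, no filter, robust eBayes and leaving out each liver. Errors on signals are SD over 3 mice, and the number of arrays limits the precision. Promoters were read from a RefSeq table of assembly GRCm38.p6.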

Additional observations from a re-analysis of the deposited data

How the results depend on the processing

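No paired analysis was possible because the mouse numbers are not shared between the groups. Ly6d, 4 of the 5 Afp probe sets, Igf2 1448152_at, Gpc3 and the probe set annotated with both Mir675 and H19 stayed positive under every alternative. The deposited scaling turned Dlk1 to 0.086 and Igf2 1415931_at to 0.16, and the latter ranged from -0.26 without BPD liver 36 to 0.091 without BPD liver 23. Igf2r was 0.16 on the deposited scale and 0.049 after quantile normalization, which also put Alb at 0.090. The added constant set the size of Afp 1436879_x_at, 1.29 with a constant 4 times larger and 3.99 with one 4 times smaller, and 1436881_x_at was 1.43 with the smaller one. Probe sets called higher went from 1126 to 2265 with the deposited scaling, and those called lower from 2759 to 1314, or 1633 with quantile normalization. Genes of the 10 related lists called lower went from 23 to 14 and 15. On leaving out 1 liver, probe sets called higher ranged from 628 (without BPD liver 28) to 1228 (without BPD liver 36), with 729 without BPD liver 23. Those called lower ranged from 1378 (without BPD liver 28) to 2763, with 1728 without GFP liver 22 and 1820 without GFP liver 31. Related genes called higher ranged from 38 to 47 around 43 and those called lower from 15 to 21. The cause of these shifts was not tested.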
